A study of Mus with 2 samples.

Results

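The ligands, receptors and SMAD proteins at the core of TGF-beta signalling were examined in macrophages given the synthetic FXR agonist GW4064. The set held 10 genes, given as a list of names, namely Tgfb1, Tgfb2, Tgfb3, Ltbp1, Tgfbr1, Tgfbr2, Smad2, Smad3, Smad4 and Smad7, out of 20060 genes that could be matched to a probe. All 10 genes had a matched probe, and all 10 gave a value. Bone marrow from male C57BL6/J mice, 10 weeks old, had been grown for 7 d with M-CSF at 10 ng/mL to give bone marrow derived macrophages (BMDMs). Both cultures were then kept for 24 h under M2 conditions, that is with IL-4 at 10 ng/mL, the cytokine of alternative activation. One culture was given the solvent DMSO and the other 10 µM GW4064 in DMSO, and RNA of each was read on 1 Agilent 1-colour array. The title, source and treatment labels name GW4064 for the second array, although its free-text description repeats the wording used for DMSO.

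TGF-beta is secreted in a latent form, bound to its own propeptide and to a latent TGF-beta binding protein, and has to be released before it can act. The active ligand joins a type II and a type I receptor, and the type I receptor then phosphorylates SMAD2 and SMAD3. These pair with SMAD4 and enter the nucleus to regulate genes, while SMAD7 acts back on the receptor as an inhibitor. In macrophages the pathway is known for restraining inflammation and for a part in tissue repair, and stromal cells such as fibroblasts respond to it by making matrix.

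With 1 array per condition there was no replicate error for any gene and no test was made. A difference below is the log2 value of the GW4064 array minus that of the DMSO array, after the 75th percentile of each array had been set to 0, and 2-fold, a log2 difference of 1, was taken as the call. A signal is the spot intensity after background subtraction, before any scaling between arrays. A spot is called well above background where Agilent's software marked it so, and the lowest signals so marked were 15.7 with DMSO and 15.1 with GW4064. Copies of the same probe give a measure of technical scatter. For 234 probes with 10 copies, every copy being well above background, the SD of the log2 difference between copies had a median of 0.077, and for the 20 of them with signals between 15 and 100 it was 0.17. These SDs cover spots on the same pair of arrays and hold no difference between cultures.

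Of the 10 core genes, 3 were 2-fold or more lower with GW4064 and 1 was 2-fold or more higher. The lower genes were the ligands Tgfb2 and Tgfb3 and the latent binding protein Ltbp1, and the higher gene was the signal transducer Smad3. Over all 13532 genes measured, 2.71% were 2-fold or more lower and 2.04% were 2-fold or more higher. The other 6 core genes differed by less than 2-fold, and 5 of them, Tgfb1, Tgfbr2, Smad2, Smad4 and Smad7, by less than 0.1 on the log2 scale. The median over the 10 genes was -0.064, against 0.0068 over all genes measured, while the single values ran from -1.38 for Tgfb2 to 1.16 for Smad3. In direction, 8 core genes were lower and 2 were higher, while 48.2% of all genes measured were lower. Among the 8, Tgfb1, Tgfbr2, Smad2 and Smad4 lay closer to no difference than the median SD of 0.077 between copies. The Tgfbr2 probes also disagreed in direction. The counts became 9 and 1 with spike-in centring or normexp correction, where Smad7 was negative.

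**Figure D1:**
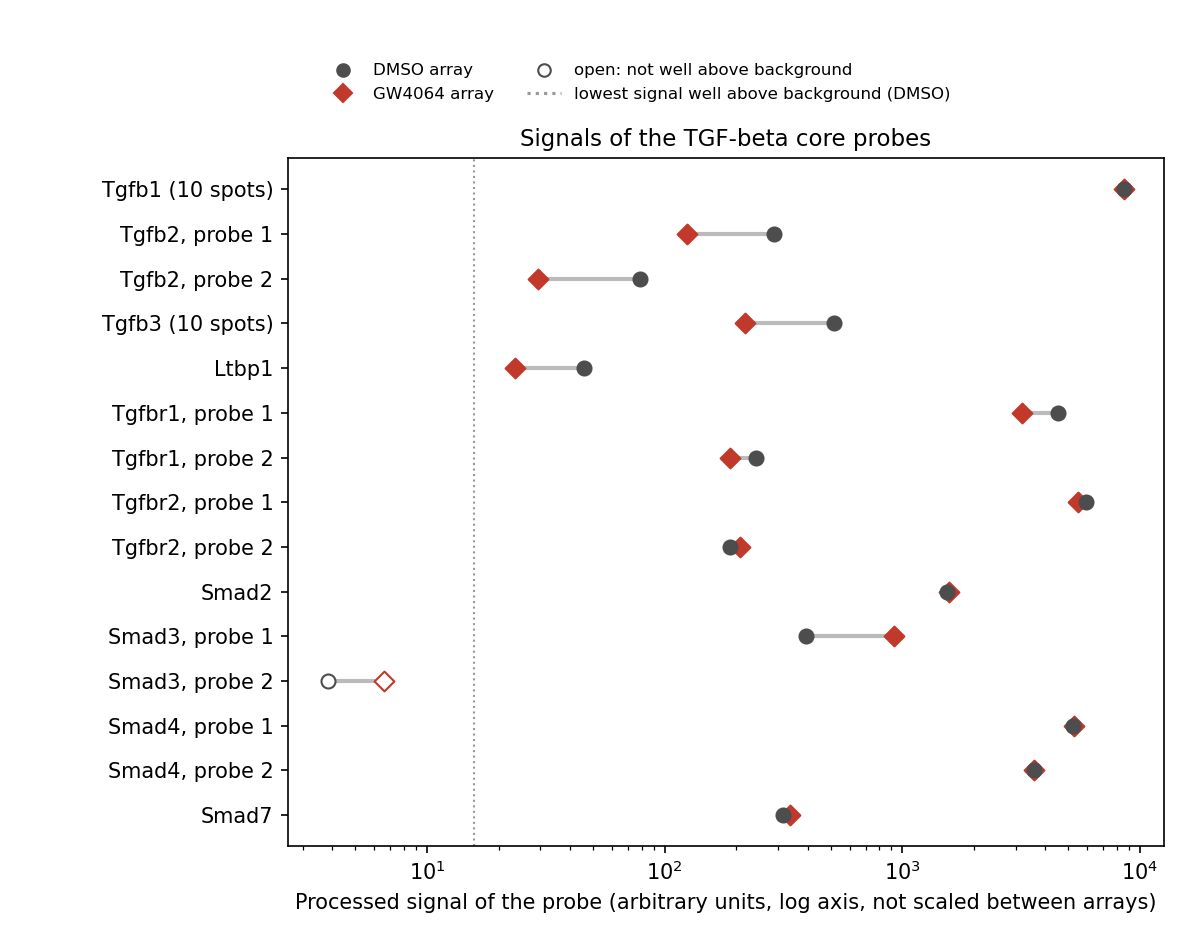
Processed signals (arbitrary units, log axis, not scaled between arrays) of the 15 probes for the 10 core genes, with the DMSO array as grey circles, the GW4064 array as red diamonds and open symbols where a probe was not well above background. The 2 Tgfb2 probes, Tgfb3 and Ltbp1 lie further left with GW4064, probe 1 for Smad3 lies further right, and the symbols of Tgfb1, Smad2 and Smad4 overlap; signals of different probes are not comparable with each other.

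The ligands did not move together. Tgfb1, the main TGF-beta of immune cells, was read by 1 probe with 10 copies, all of them well above background. Its signals on the DMSO array ran from 8012 over a median of 8406 to 9258, and on the GW4064 array from 8216 over a median of 8403 to 9006. The spots of the arrays overlapped over most of their range. After scaling, the log2 difference was -0.073 with an SD of 0.058 over the 10 spots, and 9 of the 10 spots were lower.

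Tgfb3, the isoform best known from palate and wound tissue, was also printed 10 times. Its signals ran from 483 over a median of 502 to 565 with DMSO and from 198 over a median of 218 to 244 with GW4064. No spot of either array fell within the range of the other array. The log2 difference was -1.31 with an SD of 0.096 over the spots, 2.48-fold lower with GW4064, and all 10 spots were lower, with values between -1.44 and -1.15. Of the 10 spots, 4 had 2 or more other spots with 8-fold or larger differences within 300 µm, and the mean without these 4 was also -1.31. Of all genes measured 1.63% were as low or lower.

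**Figure D2:**
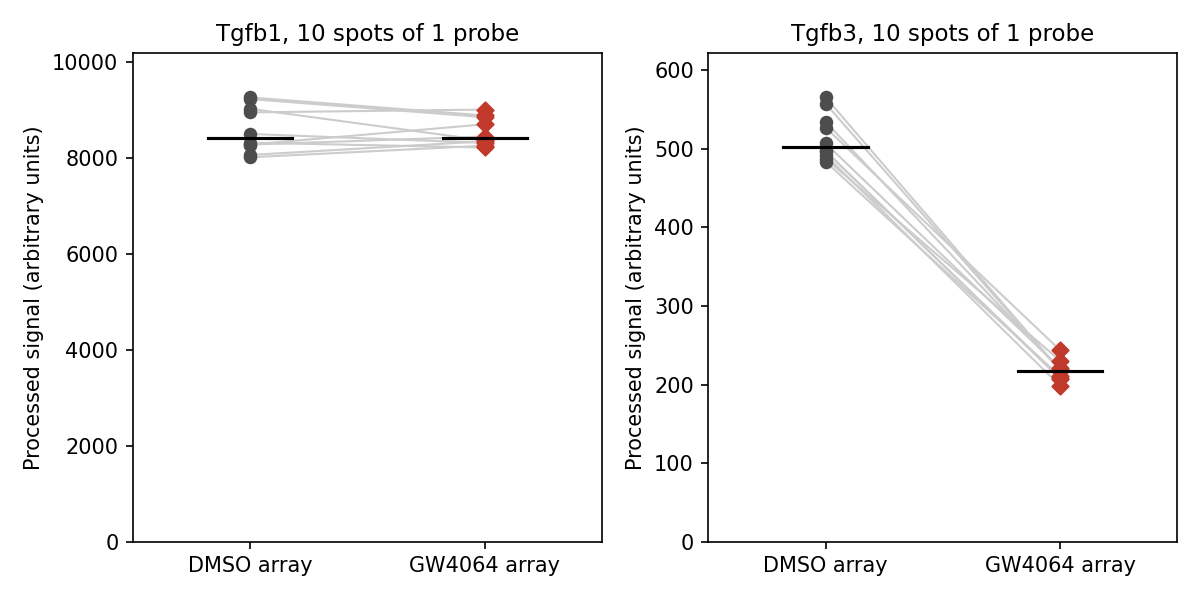
Processed signals (arbitrary units, axes starting at 0) at the 10 spots of the Tgfb1 probe and of the Tgfb3 probe on each array, with lines joining spots at the same place of the printed grid and black bars at the medians. The Tgfb1 medians are 8406 and 8403, and the Tgfb3 medians are 502 and 218 with no overlap between the arrays.

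Tgfb2, an isoform known from mesenchymal and epithelial tissues, was measured by 2 probes, each printed once. The brighter had a signal of 289 with DMSO and 124 with GW4064, a log2 difference of -1.29. The dimmer had 78.4 and 29.4, a difference of -1.48. Each was well above background on either array, and each was lower with GW4064. Their mean was -1.38, or 2.61-fold lower, and the gap of 0.20 between the probes compares with a median gap of 0.10 over 2712 genes with 2 measured probes. Within 300 µm of these spots the median difference of the other spots was 0.043 and 0.0055, so the surroundings did not share the difference.

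Ltbp1 encodes a protein that holds latent TGF-beta in the matrix. Its single spot read 45.9 with DMSO and 23.5 with GW4064, dim signals that were still marked as well above background. The log2 difference was -1.03, 2.05-fold lower and just past the call. The SD of copies at such signals was given above as 0.17, and the spot had 3 other spots with 8-fold or larger differences within 300 µm. Without the spots in such areas Ltbp1 had no value, and after quantile normalization it was under 2-fold, at -0.96.

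Signal level bears on how often a 2-fold difference was seen at all. Among the 3383 dimmest of the measured genes, which include Tgfb2 and Ltbp1, 9.25% were 2-fold or more lower. Among the next 3383 genes, which include Tgfb3, Smad3 and Smad7, 1.15% were 2-fold or more lower and 0.946% were higher. The values of Tgfb3 and Smad3 are thus from a range where such differences were rarer than in that of Ltbp1. The level of Tgfb2 is a mean over 2 probes, and its brighter probe by itself lies in the range of Tgfb3 and Smad3. These shares include genes well above background on 1 array only, which Tgfb2 and Ltbp1 were not. With probes well above background on both arrays only, 1.3% of all genes were 2-fold or more lower.

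Of the receptors, Tgfbr1 was lower and Tgfbr2 hardly differed. Tgfbr1 encodes the type I receptor kinase that phosphorylates the SMADs. Its brighter probe had a signal of 4536 with DMSO and 3186 with GW4064, and its dimmer probe had 243 and 189. The log2 differences were -0.58 and -0.43, with a mean of -0.50, or 1.42-fold lower. Both probes pointed the same way and stayed under 2-fold, and 6.53% of the measured genes were as low or lower. Within 300 µm the median difference of the other spots was 0.11 around the brighter probe and -0.16 around the dimmer. The surroundings of the dimmer probe thus ran in its own direction.

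Tgfbr2 encodes the type II receptor, which binds the ligand and activates the type I receptor. Its brighter probe went from 5922 to 5505 and its dimmer probe from 188 to 207, with log2 differences of -0.17 and 0.071. The probes disagreed in direction, and their mean was -0.050. No direction is given for this gene.

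Among the SMADs, Smad3 was the only one of the 4 core members past the call. Smad3 encodes a SMAD that receptors phosphorylate and that binds DNA directly. Probe 1, printed once, had a signal of 394 with DMSO and 924 with GW4064, a log2 difference of 1.16, or 2.24-fold higher. Of all genes measured, 1.63% were as high or higher. The spot had 0 other 8-fold differences within 300 µm, where the median difference of the other spots was -0.12. Probe 2, matched to the same transcript, had signals of 3.83 and 6.62, neither of them well above background, and gives no value. The Smad3 difference therefore rests on 1 spot per array.

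Smad2, the other receptor-activated SMAD of this pathway, had a signal of 1537 with DMSO and 1571 with GW4064 and a log2 difference of -0.035. The probes for Smad4, the partner shared with the BMP branch, had 5200 and 5286 for one and 3585 and 3578 for the other, with differences of -0.042 and -0.068. Smad7, the inhibitory SMAD that TGF-beta itself induces, had 316 and 337 and a difference of 0.028, which turned negative with spike-in centring (-0.16) and with normexp (-0.02). With the 75th percentile scaling each of these differences was smaller than the median SD of 0.077 over copies of a probe, but with spike-in centring Smad2 (-0.23), Smad4 (-0.25) and Smad7 were past it. The Smad7 spot had 4 other 8-fold differences within 300 µm and had no value without such areas.

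**Figure D3:**
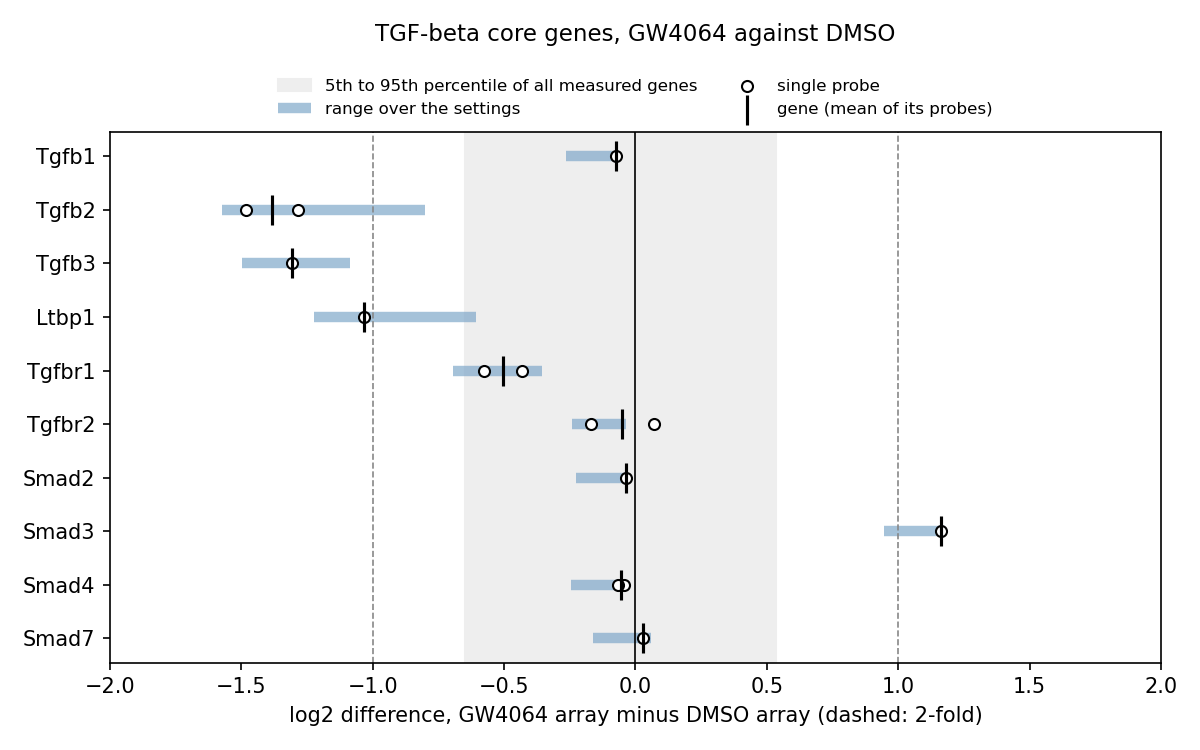
Log2 difference (GW4064 array minus DMSO array) of the 10 core genes, with black bars for the gene, open circles for single probes, blue bars for the range over the processing settings and grey shading from the 5th to the 95th percentile of all measured genes (-0.65 to 0.53). Tgfb2, Tgfb3, Ltbp1 and Smad3 lie outside the shading in the main setting and the other 6 genes lie inside it.

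The scaling set the values of the genes that hardly differed. Centring on the spike-in control RNA moved the median of all genes by -0.19, and the core genes with it. Relative to that shift no core gene changed its place, but Smad3 became 0.97, under the call. Correcting the background by normexp (offset 50), which draws dim signals together, gave -1.09 for Tgfb3, -0.80 for Tgfb2, -0.61 for Ltbp1 and 1.03 for Smad3, so that only Tgfb3 and Smad3 stayed past 2-fold under that setting.

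The wider pathway was described over 155 other genes in 9 lists by role, of which 144 were measured. Of these, 14 were 2-fold or more lower, or 9.72% against 2.71% of all genes measured, and 2 were 2-fold or more higher, or 1.39% against 2.04%. With normexp correction the 14 became 3, and the share of all genes measured that were 2-fold or more lower became 0.473%. The median was -0.084, and 69.4% were lower against 48.2% of all genes measured. By role, 5 of 25 target genes, 3 of 17 genes of the latent complex and 3 of 16 activin-type ligands and antagonists were 2-fold or more lower, and 0 genes passed in either direction among the 11 other receptors, the 19 nuclear partners of SMADs, the 21 genes of the non-SMAD branch and the 3 other SMADs. Differences between the lists were not tested and the counts moved with the processing. The latent complex had 1 gene lower without the clustered 8-fold spots or with normexp, the target genes had 1 lower with normexp and 9 with spike-in centring, the nuclear partners had 1 higher with quantile normalization, and the other SMADs had 1 lower with spike-in centring.

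Among genes that store or release latent TGF-beta, the binding proteins Ltbp2 and Ltbp3 went opposite ways. Ltbp4, named after its values were seen, lay between them, with log2 differences of 0.19 and 0.16 on its probes. Ltbp3, a binding protein needed for secretion of latent TGF-beta, was higher on both of its probes, with signals of 6558 and 19571 on the brighter and 3039 and 8371 on the dimmer. The log2 differences were 1.51 and 1.40, with a mean of 1.45. Ltbp3 was the one gene of the 17 measured in this list that was 2-fold or more higher. Ltbp2 was lower by a log2 difference of -1.26, from 2314 to 1011, with 6 other 8-fold spots within 300 µm. Fbn1, the fibrillin to which latent complexes are anchored, had -1.07, and Mmp2, a gelatinase, had -1.21 with 5 such spots nearby.

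The genes of surface proteins that hold latent TGF-beta hardly differed. Nrros, which anchors it on myeloid cells, had a signal of 66256 with DMSO and 64979 with GW4064 and a difference of -0.094. Lrrc32, also known as GARP, had 12632 and 12482 and a difference of -0.083. Thbs1, a matrix protein that activates the ligand, had -0.70. Furin, the protease that cuts the propeptide, had -0.22. For Itgav, a subunit of the activating integrins, the probes had -0.48 and -0.050, and Itgb8 was too dim for a value.

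The 11 other receptors measured lay between -0.35 (Acvr1b) and 0.53 (Tgfbr3l), both named after their values were seen, with a median of -0.12. Eng had -0.15, Acvrl1 -0.11 and Tgfbr3 -0.17, and the pseudoreceptor Bambi was too dim for a value. Of the SMADs outside the core, Smad1 had -0.046 and Smad5 -0.042, while Smad6, an inhibitory SMAD, had -0.86 from low signals of 27.9 and 16.1. Among regulators, Pmepa1, a feedback inhibitor that TGF-beta induces, was lower on both probes, by -0.84 and -0.87. Skil, another feedback gene, had -0.35, Ski -0.21, Smurf1 -0.18 and Smurf2 -0.12. Zfyve9, also called SARA, which presents SMADs to the receptor, was the one regulator of 24 past 2-fold, at -1.57 from 192 to 67.7. Of the nuclear partners, Zeb2 had -0.097, and the difference of Foxh1 was at least 1.14-fold upward, the gene not being well above background with DMSO. The highest value of this list was that of Runx3, named after its values were seen, with 0.91 and 0.94 on its probes from signals of 57.0 and 112 and of 42.7 and 85.6, and it passed 2-fold with quantile normalization. The kinase Map3k7 of the non-SMAD branch had -0.011.

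**Figure D4:**
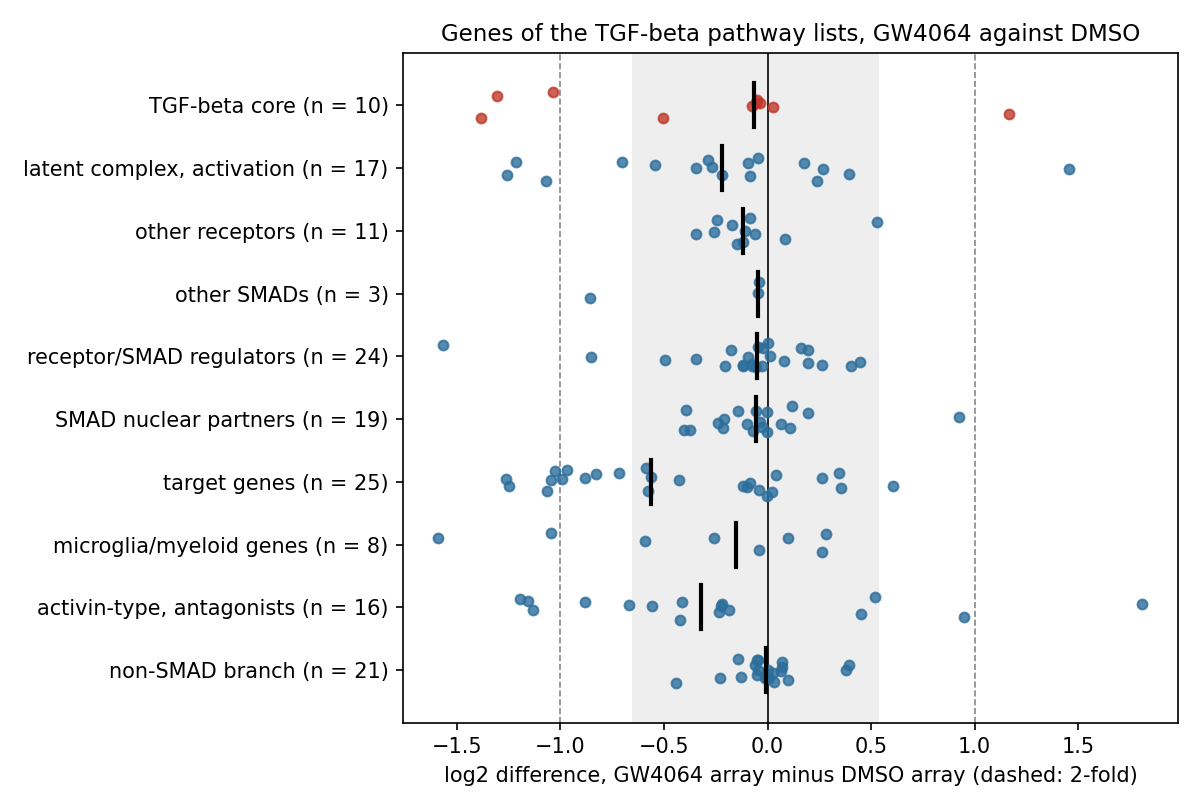
Log2 difference (GW4064 array minus DMSO array) of each measured gene in the core set (red) and in 9 lists of other pathway genes (blue, spread vertically for visibility), with black bars at the list medians, dashed lines at 2-fold and grey shading from the 5th to the 95th percentile of all measured genes. The median of the 25 target genes is -0.56 and that of the 21 non-SMAD genes is -0.0055.

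The list of genes known as TGF-beta targets had the lowest median, at -0.56 over 25 genes. The transcription factors Snai1 and Snai2 had log2 differences of -1.25 and -1.26. Snai1 was read at 1 spot with low signals of 42.9 with DMSO and 18.9 with GW4064, and Snai2 had 155 and 67.6. The smooth muscle genes Acta2 and Tagln had -1.05 and -1.02. Ccn2, also known as CTGF, had -0.97 and Tgfbi, which was bright on both arrays, had -0.58, from 75423 to 52836. Id2 had -0.097, Cdkn1a had 0.34, and no probe for Id3 was used. The Snai1 spot had 2 other 8-fold spots within 300 µm. Of the 26 genes, 5 also belong to the stromal cell list described below, and without them the median of the other 20 measured genes was -0.11, with 3 of the 20 genes 2-fold or more lower.

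Of the genes that depend on TGF-beta in microglia and other myeloid cells, 2 of 8 measured genes were 2-fold or more lower. That is 25%, against 2.71% of all genes measured, and the count was 1 with quantile normalization and 0 with normexp. Olfml3 had -1.23 and -1.95 on its probes and Gpr34 had -1.05, while Cx3cr1 had -0.26 on its measured probe and Axl had 0.28. Among activin-type ligands and antagonists, the matrix and antagonist genes Fstl1 (-1.16) and Bgn (-1.13) were lower. Fst was 2.29-fold lower against its own reading of 15.5 with GW4064, which was not well above background. Inhba had -0.67 and Gdf15 had 0.45. Mstn was 3.51-fold higher, from 20.0 with DMSO, which was not well above background, to 73.4 with GW4064. Its spot had 5 other 8-fold spots within 300 µm.

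Markers of stromal cells and neutrophils, and most of those of platelets, ran the same way as the lower ligands. The macrophage markers were present on both arrays, with 8 of 10 measured and a median of 0.057 that was negative with spike-in centring (-0.13) and normexp (-0.02). Their summed signal was 284615 with DMSO and 273940 with GW4064. Of 18 stromal cell markers, 17 were measured and all 17 were lower, against 48.2% of all genes measured. By 2-fold or more, 7 were lower, or 41.2% against 2.71% of all genes measured. The count was 4 with normexp and 10 with spike-in centring, where 0.473% and 3.86% of all genes were so low. The median of the stromal markers was -0.98 and their summed signal was 48098 with DMSO and 26303 with GW4064. Lum was too dim for a value. The differences of Tgfb2, Tgfb3, Ltbp1, Ccn2, Snai2 and Fstl1 thus ran the same way as those of stromal genes. Their part in the result was not tested, and in bulk RNA fewer cells of a type and less RNA per cell cannot be told apart. The markers of neutrophils were lower too, with a median of -0.62 over 6 measured genes and 0 past 2-fold, and of 6 platelet markers 5 were lower, 3 of them by 2-fold or more. Of these 3, Itga2b and Gp9 are bounds from spots well above background with DMSO only, and the count was 1 with normexp or without such bounds. The summed signal of the platelet markers was 27448 with DMSO and 33437 with GW4064, of which Pf4, with a log2 difference of 0.26, gave 24612 and 30857. Of 5 T and B cell markers 2 were measured and went opposite ways, Cd3e with 0.18 and Ms4a1 with a bound of -1.31 from the DMSO array only, so that no direction is given. The endothelial list had 3 of 4 genes measured and a median of -0.22. The macrophage markers lay between -0.42 and 0.13, a range that also holds Tgfb1, Nrros, Tgfbr2, Smad2, Smad4 and Smad7. The 25th and 75th percentiles of all genes measured were -0.12 and 0.13, so this range does not tell the cell of origin of a gene. Smad3 and Ltbp3 ran against the stromal genes. Of the M2 markers, Arg1 was higher by 3.82, and the other 6 measured genes were under 2-fold. These were Retnla (0.91), Clec10a (0.84), Ccl17 (0.60), Ccl24 (0.21), Chil3 (0.066) and Mrc1 (-0.34). The median of the 7 measured M2 markers was 0.60, with 6 higher and 1 lower.

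**Figure D5:**
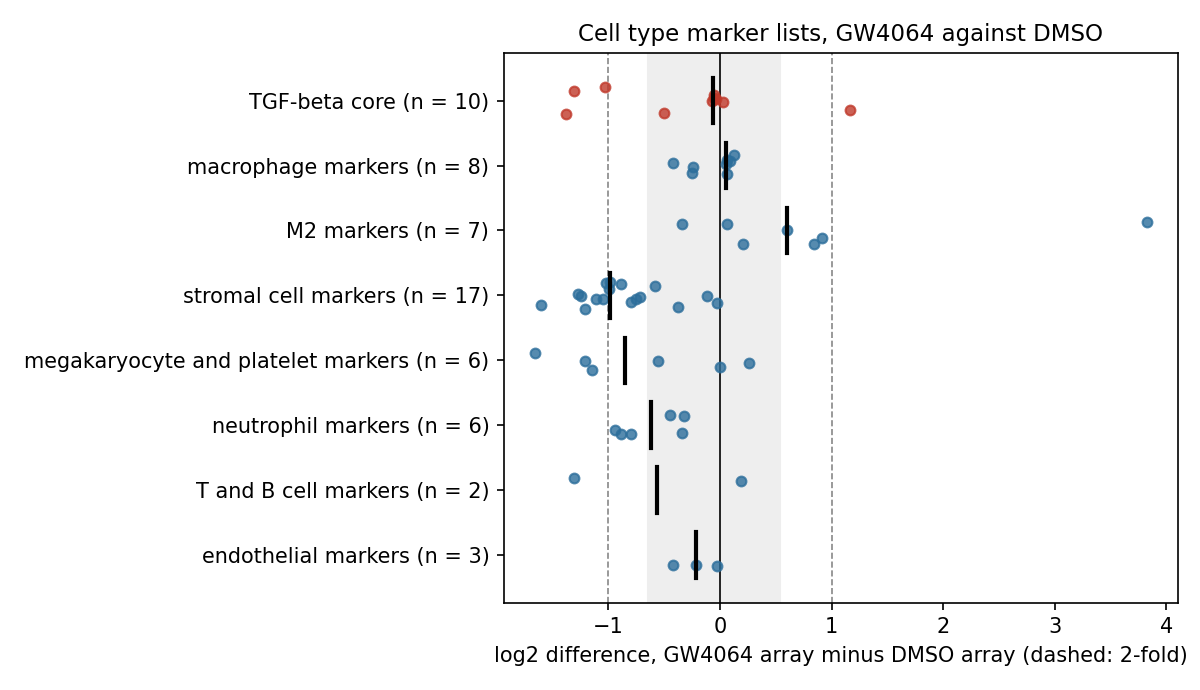
Log2 difference (GW4064 array minus DMSO array) of each measured gene in the TGF-beta core set (red) and in 7 lists of cell type markers (blue, spread vertically for visibility), with black bars at the list medians, dashed lines at 2-fold and grey shading from the 5th to the 95th percentile of all measured genes. All 17 stromal markers lie below 0 with a median of -0.98, and the 8 macrophage markers have a median of 0.057, negative with spike-in centring or normexp.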

How the data were processed

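The authors deposited the scanner output of 1 array per condition, made with Agilent Feature Extraction 10.7.1.1, in which the intensity of each spot is background subtracted and detrended but not scaled between arrays. They also deposited a log2 table of the same arrays, whose difference between columns was set against that computed here. Apart from a constant of 0.0022, they lay within 0.01 of each other for 39067 of 39200 probes, and the largest gap was 0.398. Its centring of each probe is not given in the sources used here.

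Here the log2 intensity minus the 75th percentile of non-control spots was taken. Spots marked as non-uniform or as outliers on either array were dropped. Saturation was marked at 0 spots. Copies of a probe were averaged. A probe well above background on 1 array only was given as a bound against the other array, taken there as its own value or, if higher, the dimmest value so marked. Probes of a gene that passed on either array were averaged. Of 39429 probes, 26581 matched a RefSeq accession of GRCm38.p6 without versions. With DMSO 57.4% and with GW4064 58.5% of probes kept were well above background. Precision is limited by there being 1 array per condition. Both arrays lay on the same slide and in the same scan.

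The members and gene lists were chosen with earlier results of these data known. The text names all 10 core genes, every gene of the pathway lists past 2-fold and other pathway genes picked by name, except 1 gene that is not reported here. Alternatives were quantile, median, loess (span 0.3) and spike-in scaling, the deposited table, normexp with an offset of 50 (limma 3.58.1) on the median intensity, marked spots kept, no filter or a stricter filter on dim probes, a 1.5-fold or 4-fold threshold, the brightest probe, and leaving out spots with 2 or more other 8-fold spots within 300 µm. The calculations were tested on simulated data with 4-fold changes planted in brighter probes. Changes in dim probes, bounds and differences near 2-fold were not covered by it. The software was R 4.3.3 and Python 3.11.15, with statsmodels 0.14.6 for loess, scipy 1.17.1, matplotlib 3.10.9, pandas 2.3.3 and numpy 2.4.6.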

Additional observations from a re-analysis of the deposited data

How the results depend on the processing

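No paired analysis was possible because only a single array was made for each treatment. Of the core genes past 2-fold, Tgfb3 kept its direction and its call in all 11 settings that gave it a value, Tgfb2 in 10 of 11 (all but normexp), Smad3 in 9 of 11 and Ltbp1 in 8 of 10. Smad3 was 0.97 with spike-in centring and 0.94 when its dim probe was averaged in, so that the number of core genes 2-fold or more higher was 0 in both. Smad7, near 0, was negative with spike-in centring and with normexp. The median of the core genes was -0.25 with spike-in centring.

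With normexp the number of core genes 2-fold or more lower was 1, and of other pathway genes 1 was higher and 3 were lower. The number of other pathway genes 2-fold or more higher was 4 with no filter on dim probes, 1 with probes well above background on both arrays only, and 1 without the areas of clustered 8-fold spots, where Mstn had no value. At 1.5-fold 5 were higher and 25 lower, and at 4-fold 0 core genes and 0 other pathway genes passed in either direction. The number of other pathway genes lower was 21 with spike-in centring, against the 14 given. Of all genes measured, 3.86% were 2-fold or more lower in that setting, against 2.71% in the main setting.

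Over all genes, 276 were higher and 367 lower, against 72 and 64 with normexp, 698 and 767 with no filter on dim probes, 107 and 164 with probes well above background on both arrays only, and 168 and 202 without the clustered areas. At 1.5-fold the numbers were 594 and 751, and at 4-fold 65 and 79. With spike-in centring 28.8% of the genes past 2-fold were higher, against 42.9% in the main setting. Signals under about 100, as for Ltbp1 and the dimmer Tgfb2 probe, had larger spot-to-spot scatter and are the least certain.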
